A study of Triticum turgidum subsp. durum with 32 samples.

Results

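The *TAR-A2*, *TAR-B2*, *WAT1-like-A1*, *WAT1-like-B2* and *PIN3-like-B* genes of tetraploid wheat make up the auxin biosynthesis and transport genes that the study listed as regulated specifically by *PHYB*. These 5 genes, of 150754 transcribed loci in the counts table, were found by the identifiers of that list. Because the list was drawn up from differences between *phyB*-null and wild-type plants in these same libraries, the *phyB*-null values below describe the members and are not independent evidence of their direction. The *phyC*-null values are partly fixed in the same way, since a gene changed with high confidence in *phyC*-null was left off the list.

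Leaf RNA of durum wheat cv. Kronos was sequenced in 32 libraries, in 8 groups that the study describes as 4 biological replicates each. The *phyB*-null line carries truncating alleles, induced by chemical mutagenesis, of the A and the B homoeologue of *PHYB*, and the *phyC*-null line carries mutations in both homoeologues of *PHYC*. Each mutant was compared with the wild-type sister line from its own backcrosses to Kronos, and the comparison was carried out as 2 experiments per line, so that wild-type and null plants of the *PHYB* line and of the *PHYC* line each form a group in experiment 1 and in experiment 2. All plants were 4 weeks old, were kept under 16 h of light per day, and RNA was taken from the third fully expanded leaf. Lines were grown apart, and the *PHYC* experiments stood in different chambers, so a difference between lines or between experiments cannot be told apart from a difference in growth. Each mutant is represented by a single line, which may carry other induced mutations.

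Auxin is made from tryptophan in a pathway whose opening step, the conversion to indole-3-pyruvate, is carried out by tryptophan aminotransferases. In Arabidopsis, the enzymes TAA1 and TAR2 belong to this family, PIN3 is a plasma membrane carrier that moves auxin out of cells, and WAT1 is a membrane protein of the vacuole that releases stored auxin. In the same species, loss of active phyB, as in the shade of neighbouring leaves, is known to raise auxin production and to promote elongation.

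*TAR-A2* (Traes_3AS_FF5C06A87) lies on scaffold 3019048 of chromosome 3A, positions 1 to 712, in the wheat draft assembly v2.2 used by the authors. *TAR-B2* (td-k55_contig_11729) lies on chromosome 3B, positions 76632150 to 76640740. *WAT1-like-A1* (td-k25_contig_69900) spans 67692817 to 67694005 of chromosome 2A, and *WAT1-like-B2* (Traes_5BL_CBB9D7E7F) spans 154561005 to 154567317 of chromosome 5B. *PIN3-like-B* (Traes_6BL_F93C57B09) lies on scaffold 4308375 of chromosome 6B, positions 3 to 762. These loci are merged spans of aligned transcripts and can include introns, so exons and untranslated regions are not separated, and levels were not compared between genes. The transcript of *WAT1-like-A1* was also placed on chromosome 2B, positions 94765698 to 94766854, where 6 reads were counted over all 32 libraries, and the 2A locus was taken because the name gives the A genome.

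Libraries held between 15961572 and 47695062 counted reads. The locus that the study annotated as *PHYB-A* fell by 1.26 ± 0.13 (log2, ± SE) in *phyB*-null of experiment 1 and by 1.18 ± 0.10 in experiment 2, with adjusted *P* values of 6.16e-05 and 2.38e-05, and was not called in either *phyC*-null comparison. Replicates 3 and 4 of *phyB*-null in experiment 2 resembled each other more than any other pair from a group. Their chi-square statistic per degree of freedom over loci was 1.42, against 5.17 to 72.5 in the other 47 pairs. As this exceeds pure sampling noise they were kept as 2 libraries, although separate preparations of the same RNA could also differ to this extent, so this group may hold fewer than 4 independent plants. Leaving out either changed no count of members called, though the choice of the members favours this in *phyB*-null. The loci called in *phyB*-null of experiment 2 went from 9545 to 5024 without replicate 3 and to 4958 without replicate 4. The tissue label was not checked against marker genes, which were not analysed here.

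The first question was how the auxin biosynthesis genes responded to the loss of *PHYB*. Both homoeologues of *TAR2* were higher in *phyB*-null, about 3-fold, in both experiments. *TAR-A2* had normalized counts of 18.4, 14.0, 16.6 and 26.8 in the *PHYB* wild type of experiment 1 and of 56.1, 93.1, 61.3 and 50.6 in *phyB*-null. In experiment 2 they were 27.5, 16.0, 42.5 and 14.6 in wild-type plants and 105, 124, 73.0 and 68.4 in *phyB*-null. Every mutant library lay above every wild-type library of its experiment, although wild-type replicate 3 of experiment 2 stood nearer to the mutants than the others did. The group means of *TAR-A2* differed 3.45-fold in experiment 1 and 3.67-fold in experiment 2. Normalized counts here are reads divided by a size factor computed over all 32 libraries by the median-of-ratios method. In RNA of whole leaves, a change in the share of cells that carry a transcript and a change in its level per cell cannot be told apart.

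*TAR-B2*, the homoeologue of *TAR-A2*, had normalized counts of 472, 443, 382 and 534 in the *PHYB* wild type of experiment 1 and of 1243, 1565, 1275 and 1017 in *phyB*-null. In experiment 2 the wild type had 598, 417, 547 and 371 and *phyB*-null had 1552, 1543, 1307 and 1352. The genotypes were again fully separated, and the means differed 2.79-fold and 2.98-fold. On the log2 scale, *TAR-A2* rose by 1.78 ± 0.26 (adjusted *P* = 0.000664) and 1.90 ± 0.33 (0.00235) in experiments 1 and 2. *TAR-B2* rose by 1.47 ± 0.15 (adjusted *P* = 6.16e-05) and 1.57 ± 0.16 (8.7e-05). Throughout, a locus was called at an adjusted *P* of at most 0.01 in an edgeR test fitted to all loci of the comparison.

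**Figure D1:**
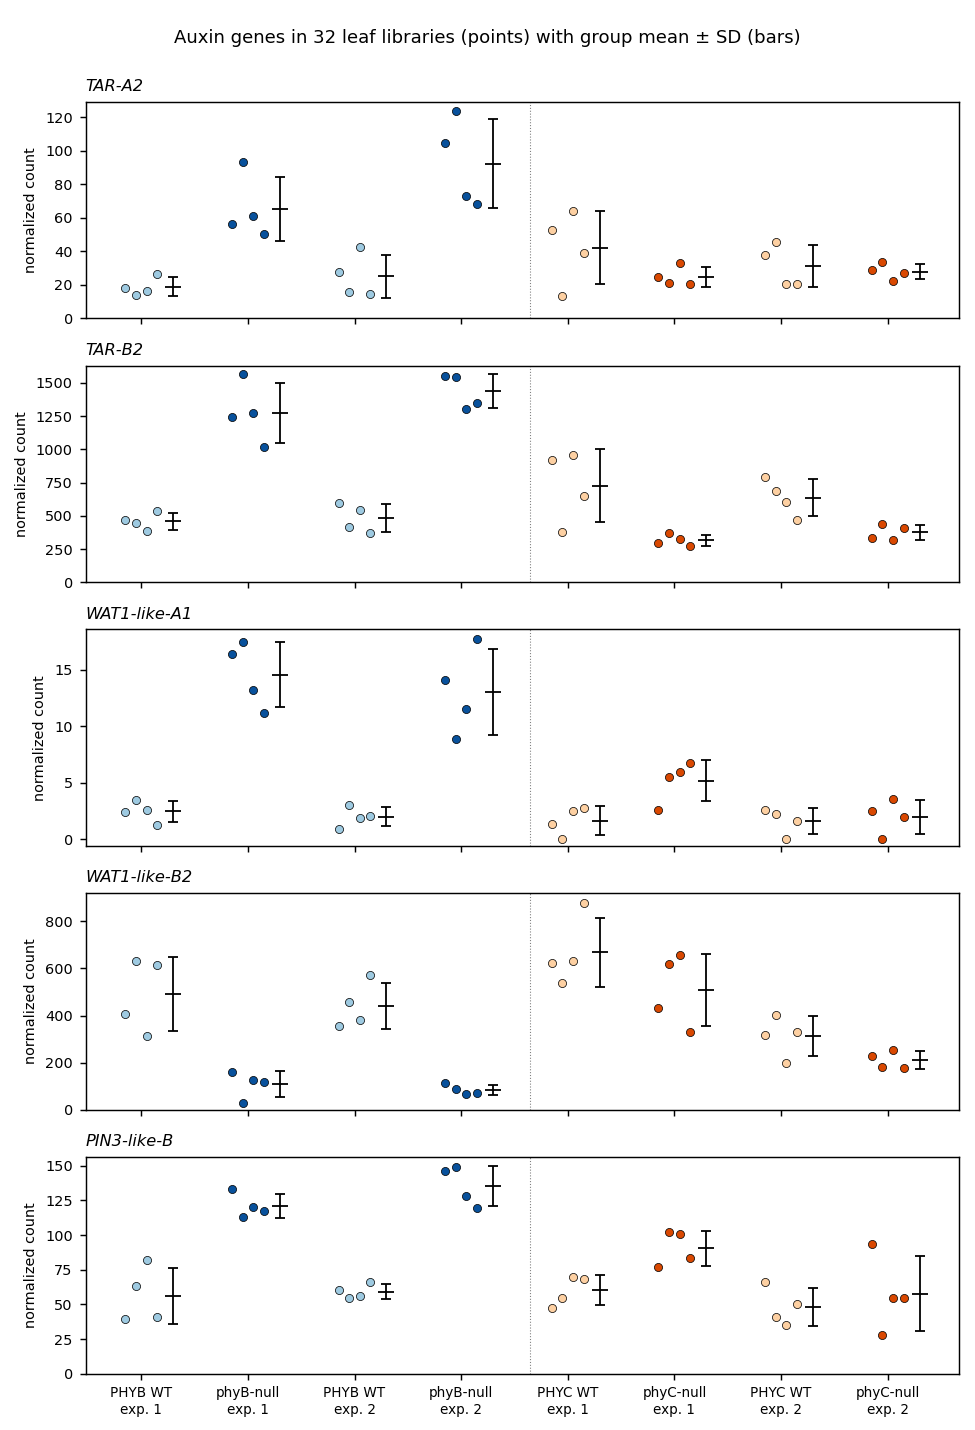
Normalized counts of the 5 genes in each of the 32 libraries (points, linear axes), by group, with the mean ± SD of 4 libraries beside them (bars). In the *PHYB* line the mutant and wild-type points of each gene do not overlap in either experiment, and in the *PHYC* line only *TAR-B2* is separated in both.

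The auxin transport genes changed in opposite directions in *phyB*-null. *WAT1-like-A1* was a rare transcript, with 2, 3, 3 and 1 reads in the wild type of experiment 1 and 19, 20, 29 and 15 reads in *phyB*-null. In experiment 2 there were 1, 4, 2 and 3 reads in wild-type plants and 17, 12, 17 and 24 in *phyB*-null. No mutant library fell to the wild-type level in either experiment. After allowing for library size, the summed reads were 5.68-fold higher in the mutant in experiment 1 (95% interval 2.85 to 12.9) and 6.30-fold higher in experiment 2 (3.23 to 13.7). These exact intervals, computed from the binomial distribution, cover counting error only. In the edgeR fit the gene rose by 2.47 ± 0.37 (log2, adjusted *P* = 0.000841) and 2.61 ± 0.39 (0.00103).

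*WAT1-like-B2* was the only member that fell. Its normalized counts were 408, 634, 311 and 613 in the wild type of experiment 1 and 159, 30.5, 126 and 118 in *phyB*-null. In experiment 2 they were 358, 459, 380 and 573 in wild-type plants and 115, 87.6, 66.3 and 73.6 in *phyB*-null. The genotypes did not overlap, and within experiment 1 the mutants themselves ranged widely because replicate 2 was far below the other 3. The mean was 4.54-fold lower in *phyB*-null in experiment 1 and 5.16-fold lower in experiment 2, with log2 changes of -2.19 ± 0.38 (adjusted *P* = 0.002) and -2.37 ± 0.20 (3.31e-05).

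*PIN3-like-B*, named after the Arabidopsis auxin efflux carrier, had the smallest change of the 5 genes in *phyB*-null. Its normalized counts were 39.2, 62.9, 82.0 and 40.8 in the wild type of experiment 1 and 133, 113, 120 and 118 in the mutant. In experiment 2 they were 60.6, 54.3, 55.8 and 65.9 in wild-type plants and 146, 149, 128 and 119 in the mutant. The mutant libraries all lay higher, by 2.15-fold and 2.29-fold on average. The log2 changes were 1.07 ± 0.22 (adjusted *P* = 0.00504) and 1.19 ± 0.13 (0.000168). The call in experiment 1 was lost when *PHYB* wild-type replicate 1 or 2, or any single *phyB*-null library, was left out, with adjusted *P* values up to 0.0197, while the change stayed between 0.93 and 1.32.

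In total, 4 of the 5 members rose and 1 fell in each *phyB*-null comparison, where edgeR called 9.41% of the 81246 loci tested in experiment 1 (3.98% higher, 5.43% lower) and 11.6% of the 82640 tested in experiment 2 (5.83% higher, 5.72% lower). The median log2 change over the 5 members was 1.47 and 1.57, beside 0.026 and 0.0016 over all tested loci. The separation of genotypes without overlap was seen for all 5 members in both experiments, and was seen for 24% and 26.5% of all tested loci. As the study chose the members on such differences, nothing further is read from these counts.

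**Figure D2:**
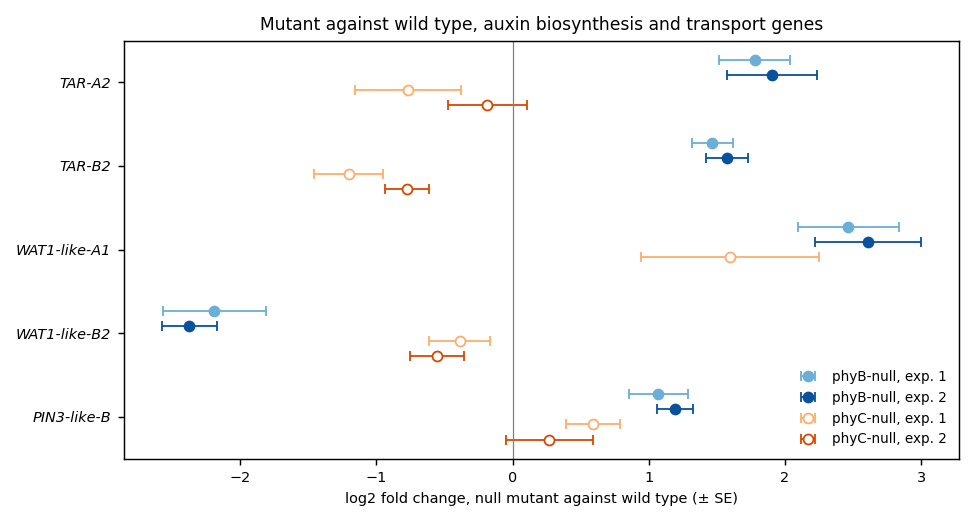
Log2 fold change (± SE) of each gene between null mutant and wild type in the 4 comparisons. Filled points were called at an adjusted *P* of at most 0.01 and open points were not. *TAR-A2* and *TAR-B2* both lie above 0 in *phyB*-null and below 0 in *phyC*-null, where neither was called. *WAT1-like-A1* has no point for *phyC*-null of experiment 2 because it had too few reads to be tested.

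The same genes were then examined in *phyC*-null, where none of the members was called. In the edgeR test of experiment 1, 0 of 5 passed while 1.64% of 77398 loci did. An unadjusted *P* below 0.05 was found for 3 of the 5 and for 16761 of all loci tested. In experiment 2, 0 of the 4 members with enough reads passed while 1.04% of 75109 loci did. Of these 4 members, 2 had an unadjusted *P* below 0.05, as did 11358 of all loci tested. DESeq2 called 1 member, *TAR-B2*, in each experiment.

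*TAR-B2* had lower values in every *phyC*-null library than in any wild-type library of its experiment, a separation found for 15% of tested loci in experiment 1 and 9.21% in experiment 2. In experiment 1 the normalized counts were 924, 375, 961 and 649 in the *PHYC* wild type and 293, 368, 328 and 270 in *phyC*-null. In experiment 2 they were 791.2, 689, 603 and 467 in wild-type plants and 333, 438, 319 and 410 in the mutant. Wild-type replicate 2 of experiment 1 came within reach of the mutants, as did replicate 4 of experiment 2. The wild-type mean was 2.31-fold and 1.70-fold that of the mutant. The log2 differences were -1.20 ± 0.25 (adjusted *P* = 0.0182) and -0.78 ± 0.16 (0.0254), short of the threshold in both experiments.

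Without wild-type replicate 2 of experiment 1 the adjusted *P* of *TAR-B2* there was 0.000218, without wild-type replicate 4 of experiment 2 it was 0.00752, and over all alternatives it ranged from 0.000218 to 0.0747 and from 0.00192 to 0.0835. When the effect was averaged over both experiments in 1 fit to the 16 *PHYC* libraries, a test added after the separate values were seen, *TAR-B2* was called, with a log2 change of -0.99 ± 0.16 and an adjusted *P* of 0.000565. In that fit 4.37% of 81574 loci were called, and the other 4 members were not. The call was lost without replicate 1 of every group (adjusted *P* = 0.0209) or without replicate 3 of every group (0.015), over a range of 1.34e-06 to 0.0209.

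*TAR-A2* had normalized counts of 52.9, 13.1, 63.9 and 39.1 in the *PHYC* wild type of experiment 1 and 24.7, 20.9, 32.8 and 20.3 in *phyC*-null. In experiment 2 the values were 37.7, 45.4, 20.6 and 20.5 in wild-type plants and 28.6, 33.5, 22.4 and 27.3 in the mutant. The genotypes overlapped in both, and the wild type varied more than the mutant. The log2 differences were -0.77 ± 0.39 (adjusted *P* = 0.28) and -0.19 ± 0.29 (0.832).

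*WAT1-like-A1* gave 1, 0, 2 and 2 reads in the *PHYC* wild type of experiment 1 and 3, 6, 6 and 7 reads in *phyC*-null. A library without a read still allows about 3 reads, which is a normalized count of 3.57 in wild-type replicate 2, above all the other wild-type values. By summed reads the mutant was 3.17-fold higher (95% interval 1.17 to 10.7, counting error only), and the edgeR difference of 1.59 ± 0.65 did not pass (adjusted *P* = 0.18). In experiment 2 there were 2, 2, 0 and 1 reads in wild-type plants and 2, 0, 4 and 1 in the mutant, a ratio of 1.39 (0.38 to 5.56), and no difference was detectable at this depth.

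*WAT1-like-B2* had normalized counts of 623, 540, 633 and 877 in the *PHYC* wild type of experiment 1 and 431, 618, 655 and 332 in the mutant. In experiment 2 they were 320, 404, 199 and 329 in wild-type plants and 229, 184, 256 and 178 in the mutant. The genotypes overlapped in both experiments, with log2 differences of -0.39 ± 0.22 (adjusted *P* = 0.347) and -0.56 ± 0.20 (0.198). For *PIN3-like-B* the values in experiment 1 were 47.5, 54.8, 70.1 and 68.4 in wild-type plants and 76.8, 102, 101 and 83.1 in *phyC*-null. All mutant libraries were higher there, yet the difference of 0.59 ± 0.20 was not called (adjusted *P* = 0.108). In experiment 2 the wild type had 66.3, 40.9, 35.2 and 50.4 and the mutant 93.3, 27.9, 54.6 and 54.7, which overlapped, with a difference of 0.27 ± 0.32 (adjusted *P* = 0.763).

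The difference between the 2 mutant effects was tested directly over all 32 libraries, as the mean log2 effect of *phyB*-null over both experiments minus that of *phyC*-null. It passed for 3 of the 5 members and for 5.95% of 90331 loci, and the way the list was chosen favours such differences. The effect on *TAR-B2* differed by 2.52 ± 0.21 (adjusted *P* = 1.83e-10) and that on *TAR-A2* by 2.32 ± 0.36 (2.88e-05). For *WAT1-like-B2* the difference was -1.80 ± 0.30 (adjusted *P* = 9.55e-05). The effects on *PIN3-like-B* and *WAT1-like-A1* were not shown to differ between the mutants. Their differences were 0.71 ± 0.24 (adjusted *P* = 0.048, 95% interval 0.23 to 1.19) and 1.52 ± 0.63 (0.136, 0.25 to 2.80). These intervals leave out 0 but are not adjusted for the number of loci tested. In this edgeR test all 5 members had an unadjusted *P* below 0.05, as did 21738 of all loci.

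Whether the responses differed between the repeats of an experiment was also tested. The study required a change in the same direction in both *PHYB* experiments, so for that line the values only describe the members and nothing is read from them. For the *PHYB* line, the edgeR test of the genotype by experiment interaction called 0 of the 5 members and 0.00458% of 87262 loci. No member had an unadjusted *P* below 0.05, while 9166 of all loci did. In the *PHYC* line this test called 0 of the 5 members and 0.0172% of 81574 loci, again with no member below 0.05, while 8419 of all loci were. DESeq2 also called 0 members in both lines.

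The wild-type level of the members was likewise compared between experiments and between lines. In the *PHYB* line, edgeR called 0 of the 5 members between the wild types of experiments 1 and 2, where 2.56% of loci were called. No member had an unadjusted *P* below 0.05, while 18821 of 87262 loci did. DESeq2 also called 0. In the *PHYC* line, where 2.03% of loci were called, *WAT1-like-B2* fell by 1.09 ± 0.23 on the log2 scale from experiment 1 to experiment 2 (adjusted *P* = 0.00831). Its *PHYC* wild-type values of experiment 2 all lay below those of experiment 1. With any replicate number left out of every group the adjusted *P* was 0.0148 to 0.0703, so this call rests on all 4 replicates. Between the *PHYC* and *PHYB* wild types, 17.9% of loci differed and *TAR-B2* was 0.54 ± 0.14 higher in the *PHYC* line (adjusted *P* = 0.00548). This call was lost without replicate 1 (adjusted *P* = 0.055) or replicate 3 (0.0616) of every group. *TAR-A2* differed by 0.76 ± 0.26 in the same direction without passing (adjusted *P* = 0.0303).

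In the order of the 8 group means, *phyB*-null of experiment 2 and *phyB*-null of experiment 1 held the 2 highest places for *TAR-A2*, *TAR-B2* and *PIN3-like-B*, in that order, and for *WAT1-like-A1* in the reverse order. They held the 2 lowest places for *WAT1-like-B2*. The ranges of these *phyB*-null groups overlapped each other for every member, so their order is not separated from the spread. For *TAR-B2*, *WAT1-like-A1*, *WAT1-like-B2* and *PIN3-like-B* the gap between them and the neighbouring group was free of overlap, and for *TAR-A2* the *PHYC* wild type of experiment 1 reached into it. As the members were chosen on their *phyB*-null values, these positions are a description only. Among the remaining 6 groups, *PIN3-like-B* in *phyC*-null of experiment 1 (90.6 ± 12.6, SD, n = 4) stood clear of the next group, the *PHYC* wild type of experiment 1 (60.2 ± 10.9). It was not clear of all lower groups. The lowest library of *phyC*-null in experiment 1 (76.8) lay below the highest of *phyC*-null in experiment 2 (93.3) and of the *PHYB* wild type in experiment 1 (82.0). All other neighbours among the remaining groups overlapped in each of the 5 genes. The *TAR-B2* means ran from 315 ± 42.4 in *phyC*-null of experiment 1 to 1439 ± 127 in *phyB*-null of experiment 2.

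The ratio of the *TAR2* homoeologues within a library needs no size factor, and it was compared between genotypes by an exact permutation test within experiments. Log2 of *TAR-B2* over *TAR-A2* reads averaged 4.20 ± 0.39 (SD, n = 4) and 4.39 ± 0.38 in the *PHYC* wild types of experiments 1 and 2 and 3.66 ± 0.34 and 3.72 ± 0.15 in *phyC*-null. The mean difference was -0.61 in *phyC*-null (exact two-sided *P* = 0.00245, adjusted over both lines 0.0049), with mutant minus wild-type differences of -0.54 in experiment 1 and -0.68 in experiment 2. Without replicate 1 of every group the adjusted *P* was 0.06. In the *PHYB* line it averaged 4.59 ± 0.27 and 4.35 ± 0.47 in the wild types and 4.30 ± 0.17 and 3.99 ± 0.29 in *phyB*-null, a difference of -0.32 that did not pass (exact two-sided *P* = 0.0596, adjusted 0.0596). That difference passed 0.05 without replicate 3 of every group (-0.49, adjusted *P* = 0.02) or without *phyB*-null replicate 4 of experiment 2 (-0.37, 0.0494). The *TAR-A2* locus is a short scaffold fragment and reads shared by both homoeologues were discarded by the authors, so the ratio itself does not give the relative output of the homoeologues.

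The homoeologues also varied together from plant to plant. After group means were removed, log2(normalized count + 1) of *TAR-A2* and *TAR-B2* had a Pearson's *r* of 0.86 over 32 libraries (Spearman's rho 0.80). *WAT1-like-A1* and *PIN3-like-B* had an *r* of 0.56 (rho 0.48), and the other 8 pairs of members lay between -0.12 and 0.23. These are descriptions, since the libraries share size factors and differ in depth.

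**Figure D3:**
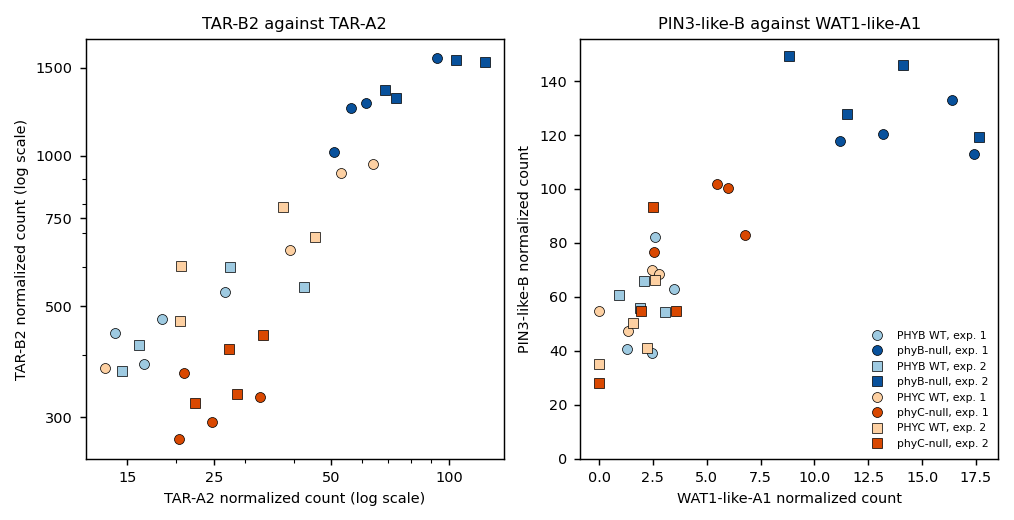
Normalized counts of *TAR-B2* against *TAR-A2* (left, log axes) and of *PIN3-like-B* against *WAT1-like-A1* (right, linear axes), 1 point per library, coloured by group (circles, experiment 1; squares, experiment 2). The *TAR2* homoeologues rise together across the libraries, with the *phyC*-null points lowest in *TAR-B2* among libraries of similar *TAR-A2* level, and the *phyB*-null points stand apart from the other groups on the right.

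Among 43937 other loci with a mean normalized count of at least 20, *TAR-B2* had the highest correlation with *TAR-A2* over the 32 libraries (*r* = 0.88), followed by Traes_4AL_36D63D2CA, annotated as a fatty acyl coenzyme A reductase (0.88), and Traes_2AL_EF9549D16 (0.87). The last of these, which the study named *ATHB2-A* and which encodes a homeobox-leucine zipper protein, was the locus most like *TAR-B2* (*r* = 0.93). Next for *TAR-B2* came td-k45_contig_22039, merged with td-k21_contig_19641 (0.92), and td-k51_contig_16470 (0.90). For *WAT1-like-B2* the nearest loci were Traes_3AL_24D968468 (*r* = 0.90), Traes_6BS_72F59E261 (0.90) and Traes_4BS_1DCF82CB7, annotated as a zinc induced facilitator-like protein (0.89). For *PIN3-like-B* they were Traes_4BS_9940A14C1, of the nitrate and peptide transporter family (*r* = 0.88), Traes_2AL_BFD8A8148 (0.87) and Traes_4AS_19ECAD6DD (0.86). For *WAT1-like-A1* they were CL3616Contig2, annotated as pyruvate decarboxylase (*r* = 0.89), Traes_7AL_4916AD518 (0.89) and Traes_1AS_2E8E096B8 (0.88). The points share libraries and groups, so these values only describe the likeness of patterns.

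The loci next to the members were examined for the same responses. *TAR-A2* and *PIN3-like-B* are the only loci on their scaffolds. Of the 6 nearest tested loci beside the other 3 members, td-k55_contig_62472 was called in *phyB*-null, where it fell. It starts 23421 bases beyond *WAT1-like-B2* on chromosome 5B. Of all tested loci, 9.41% were called in *phyB*-null of experiment 1 (5.43% lower) and 11.6% in experiment 2 (5.72% lower). Nothing is therefore read from 1 called neighbour. The log2 changes of td-k55_contig_62472 were -1.11 ± 0.20 (adjusted *P* = 0.0028) and -1.0 ± 0.18 (0.0029), and it was not called in *phyC*-null. Its call was lost without *phyB*-null replicate 1, 3 or 4 in experiment 1 (adjusted *P* up to 0.013) and without *phyB*-null replicate 2, 3 or 4 in experiment 2 (up to 0.014). The locus on the other side of *WAT1-like-B2*, 62962 bases away, was not called in any of the 4 comparisons, nor were the neighbours of *TAR-B2* and *WAT1-like-A1*, 1 of which had enough reads to be tested in *phyC*-null of experiment 1 only.

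Finally, 6 further loci were followed in the same fits. They were picked here by name, as related to auxin, from the part of the study's annotation that could be read, so the list is not complete. The annotation of Traes_3AS_21041A74C names an enzyme of indole and not auxin itself. These too come from lists that the study selected by its *phyB*-null calls. In *phyB*-null of experiment 1, 4 of the 6 were called higher and 2 lower, while 9.41% of all loci were called. The median log2 change was 0.94 beside 0.026 over all loci. In experiment 2, 2 were called lower and the other 4 were not called, while 11.6% of all loci were called. The median there was 0.46 beside 0.0016 over all loci. None of the 6 was called by edgeR in *phyC*-null, where 1.64% of all loci were called in experiment 1 and 1.04% in experiment 2. An unadjusted *P* below 0.05 was found for 4 of them in experiment 1, beside 16761 of 77398 loci. In experiment 2 it was found for 1 of them, beside 11358 of 75109 loci. DESeq2 called Traes_3AS_21041A74C, which was lower in the mutant, and td-k35_contig_5550, which was higher, in experiment 1. Between the *PHYC* and *PHYB* wild types, edgeR called 2 of the 6 higher and 2 lower, beside 17.9% of all loci. The effects in the 2 mutants were therefore measured from unlike wild-type levels, and line and growth run cannot be told apart.

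Traes_3AS_21041A74C, annotated as an indole-3-glycerol phosphate lyase, an enzyme that releases indole in maize, fell in *phyB*-null by 1.57 ± 0.15 (adjusted *P* = 3.5e-05) and by 1.30 ± 0.17 (0.000499). Its normalized count was 3464 ± 666 in wild-type plants and 1181 ± 133 in *phyB*-null of experiment 1 (SD, n = 4). KukriC934_9, annotated as an indole-3-acetic acid-amido synthetase, the family that couples auxin to amino acids, rose by 1.05 ± 0.16 in experiment 1 (adjusted *P* = 0.000708) and differed by 1.13 ± 0.29 in experiment 2 (0.0162). DESeq2 called KukriC934_9 in experiment 2 as well (adjusted *P* = 0.00201), and over the alternatives its adjusted *P* there ranged from 0.00169 to 0.0449. It was also called in experiment 2 without *PHYB* wild-type replicate 4, and in *phyC*-null of experiment 1 without *PHYC* wild-type replicate 2 (0.00686).

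The other 4 loci are annotated as relatives of WAT1. Traes_4AL_1B3E7B791 fell like *WAT1-like-B2*, by 1.34 ± 0.21 (adjusted *P* = 0.00108) and by 1.07 ± 0.22 (0.00611). Its *PHYB* wild-type levels were 347 ± 90.5 and 351 ± 124 in experiments 1 and 2 (SD, n = 4). The *PHYC* wild types had only 51.2 ± 34.1 and 64.6 ± 13.6, below the means of both *phyB*-null groups (138 ± 29.8 and 167 ± 15.5). The call of Traes_4AL_1B3E7B791 in experiment 2 was lost without *PHYB* wild-type replicate 1 or 3 or any *phyB*-null library (adjusted *P* up to 0.0252). td-k35_contig_5550 rose by 2.26 ± 0.32 in experiment 1 (adjusted *P* = 0.000598) and differed by 1.0 ± 0.26 in experiment 2 (0.0174), where it was called by DESeq2 (0.00285) and without *PHYB* wild-type replicate 3 (0.000914), over a range of 0.000914 to 0.0523. Its wild-type level was not steady, with 461 ± 228 in experiment 1 and 982 ± 439 in experiment 2 of the *PHYB* line. In the *PHYC* wild type the same locus fell from 630 ± 85.3 to 112 ± 10.7 between experiments, a log2 change of -2.49 ± 0.14 (adjusted *P* = 2.83e-08), in the same direction as *WAT1-like-B2*. Traes_3AS_CA28810B7 rose by 2.33 ± 0.42 (adjusted *P* = 0.00254) and Traes_6BL_FB645D04E by 0.83 ± 0.18 (0.00847) in experiment 1, and neither was called in experiment 2. The call of Traes_3AS_CA28810B7 was lost without *phyB*-null replicate 3 (adjusted *P* = 0.0113), and that of Traes_6BL_FB645D04E without any single library of experiment 1 other than *PHYB* wild-type replicate 2 (up to 0.029).

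**Figure D4:**
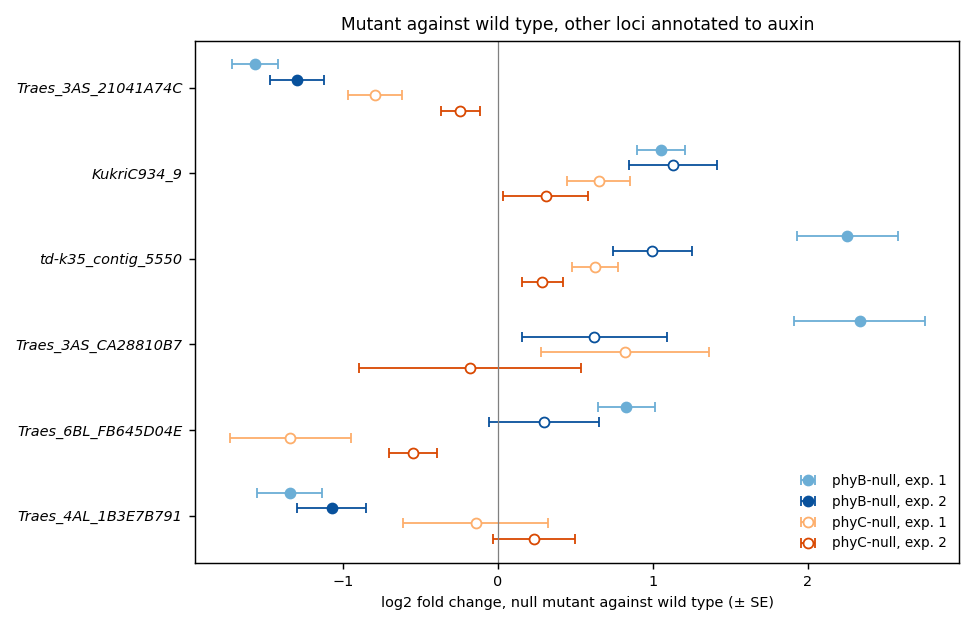
Log2 fold change (± SE) between null mutant and wild type of 6 further loci, in the 4 comparisons. The loci were picked for annotations related to auxin, and filled points mark an adjusted *P* of at most 0.01. In *phyB*-null, 4 loci lie above 0 and 2 below in both experiments, and no locus has a filled point in *phyC*-null.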

How the data were processed

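The authors trimmed the single-end reads, mapped them with GSNAP to the A and B chromosomes of the wheat draft assembly v2.2, kept uniquely mapped reads and counted them over 150754 merged transcript spans with HTSeq. The deposited values are raw read counts, with no normalization. The strand used in counting is not given in the sources used here. A locus entered a fit when 2 or more of its libraries held 3 or more reads, and was tested with edgeR 4.0.16 (quasi-likelihood test, median-of-ratios factors, R 4.3.3). Benjamini-Hochberg adjustment ran over all loci of the fit. The *TAR2* ratio used counts + 0.5. Each experiment was fitted alone for mutant against wild type, each line for effects of experiment, and all 32 libraries for differences between lines. The fits of mutant against wild type were tried on simulated counts. These gave all loci the same spread and changed only loci with many reads. They therefore say nothing of rare transcripts such as *WAT1-like-A1*, and no result here rests on them. A single permutation test per line was run for the *TAR2* ratio. The members, lists and alternatives were chosen with earlier results of these data known. Named loci are the 5 members, their nearest tested neighbours, the 3 loci most correlated with each and the *PHYB-A* locus. Named too are the 6 further loci picked by name, as related to auxin, from the study's annotation. DESeq2 1.42.0, other size factors, other filters, a replicate block and leaving out libraries served as alternatives. A wider auxin list and sequences were not used here.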

Additional observations from a re-analysis of the deposited data

Results flagged for a closer look

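The responses to the loss of *PHYB* and of *PHYC* differed by the direct test over all 32 libraries for *TAR-B2* (log2 difference 2.52), *TAR-A2* (2.32) and *WAT1-like-B2* (-1.80). The difference also passed for td-k55_contig_62472 (-0.81), the locus beside *WAT1-like-B2*, and, among the further auxin loci, for Traes_3AS_21041A74C (-0.91), Traes_6BL_FB645D04E (1.51) and td-k35_contig_5550 (1.18). Traes_6BL_FB645D04E changed by -1.34 and -0.55 in *phyC*-null, beside 0.83 and 0.30 in *phyB*-null. Its *PHYC* wild-type replicate 2 of experiment 1 had 12393, beside a group median of 4198. In *phyC*-null, Traes_3AS_21041A74C changed by -0.79 and -0.24 and td-k35_contig_5550 by 0.63 and 0.29. No *phyC*-null change of these 3 loci was called by edgeR. All the loci that passed, except td-k55_contig_62472, were selected by the study for their *phyB*-null values. The locus td-k55_contig_62472 was found by its position. It was, however, the only neighbour called in *phyB*-null and the only one followed in this test, so its difference is favoured too. The adjusted *P* of td-k55_contig_62472 was 0.00963, and over the alternatives it ranged from 0.00352 to 0.129, whereas that of *TAR-A2*, *TAR-B2* and *WAT1-like-B2* stayed at or below 0.00391. The difference also lost its call for td-k35_contig_5550 without replicate 1 (adjusted *P* = 0.065) or 4 (0.0234) of every group, over a range of 0.000368 to 0.065, and for Traes_6BL_FB645D04E without replicate 2 (0.0297) or 3 (0.0228) of every group, over a range of 0.000397 to 0.0297. For td-k55_contig_62472 it was lost without any replicate number, without *phyB*-null replicate 3 or 4 of experiment 2, and with the replicate block (0.0315). Mutants and growth runs differ together, so line and run cannot be told apart in these differences. In the 40 groups of 4 libraries formed by the 5 members and 8 groups, no library stood apart from the other 3 by Dixon's criterion.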

How the results depend on the processing

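The 5 members kept their direction in *phyB*-null under every alternative run, which the way they were chosen favours. In experiment 1 the members called numbered 3 with the replicate block, which ended the calls of *WAT1-like-B2* (-2.26, adjusted *P* = 0.0125) and *PIN3-like-B* (1.12, 0.0157) and that of the neighbour td-k55_contig_62472 (-1.06, 0.0194), and 4 to 5 with single libraries left out, and in experiment 2 they numbered 5 throughout. In *phyC*-null the count rose from 0 to 1 (*TAR-B2*) with no filter and with DESeq2 in both experiments, and was 0 to 1 with single libraries left out. Between the *PHYC* wild types it was 0 with the replicate block and 0 without any replicate number, and between lines it was 0 with the block and 0 to 1 without a replicate number. Deviations of equally numbered libraries correlated between -0.39 and 0.15. Unequally numbered libraries were not compared, so these values do not settle whether replicate numbers pair the samples. The *TAR2* ratio difference was -0.49 to -0.11 in the *PHYB* line with libraries left out, passing at 0.05 without replicate 3 of every group (adjusted *P* = 0.02) and without *phyB*-null replicate 4 of experiment 2 (-0.37, 0.0494) but not without replicate 3 (-0.35, 0.0702), and -0.66 to -0.54 in the *PHYC* line, where it missed without replicate 1 (-0.57, 0.06). Small uncalled differences changed sign when 1 library was left out. These ranged from -0.34 to 0.065 (*TAR-A2*) and from -0.072 to 0.50 (*PIN3-like-B*) in *phyC*-null of experiment 2, from -0.040 to 0.78 for Traes_6BL_FB645D04E in *phyB*-null of experiment 2, from -0.50 to 0.080 for Traes_3AS_CA28810B7 and from -0.058 to 0.39 for Traes_4AL_1B3E7B791 in *phyC*-null of experiment 2, and from -0.51 to 0.26 for Traes_4AL_1B3E7B791 in *phyC*-null of experiment 1, which was 0.085 with the replicate block. The cause was not tested.

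The number of all loci called also moved with the processing. Over all alternatives it ran from 3422 to 11329 (7648 in the fit reported) and from 4958 to 13598 (9545) in *phyB*-null. In *phyC*-null it ran from 452 to 3784 (1273) and from 483 to 1600 (781). It ran from 0 to 394 (4) and from 4 to 154 (14) for the interactions, from 154 to 5019 (2238) and from 61 to 5021 (1656) between wild types of a line, from 2548 to 7267 (5379) between mutants and from 10425 to 17860 (16212) between lines. For the mean of both experiments it ran from 11207 to 22627 (20674) for the loss of *PHYB* and from 1332 to 5698 (3564) for the loss of *PHYC*. All 90 alternative correlations behind the likeness of patterns stayed within 0.1. *WAT1-like-A1*, the member with fewest reads, could be tested in *phyC*-null of experiment 2 only with no filter (0.42, adjusted *P* = 0.875).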
